A study of Oncorhynchus mykiss with 30 samples.

Results

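FOXL2, spon2 and cdkn1b were each read by 1 probe on the trout array, TC126540, TC109462 and TC128043, and these 3 probes out of 60195 are described here over all arrays. They were chosen by the study's fold changes and adjusted p, which list them among the genes over-expressed in CT1 (control versus 0.01 μgEE2/L) and CT2 (control versus 0.1 μgEE2/L) and not in the contrasts with the higher concentrations. Their levels against the control, and at the lower against the higher concentrations, are therefore a description and carry no test. The contrasts between 0.01 and 0.1 μgEE2/L and between 1 and 10 μgEE2/L, and the relations within groups, were not themselves used for the choice. The adjusted p of the choice rest on the spread within groups, so the size of that spread did enter it. Those contrasts and relations were tested. Both contrasts compare groups for which the choice had asked a like result, so a missing difference there is no finding about the genes.

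The arrays measured RNA of gonads from all-male rainbow trout (Oncorhynchus mykiss) fry. The fry received 17α-ethynylestradiol (EE2), a synthetic oestrogen, for 76 days from first feeding at 60 days post-fertilisation (dpf) until 136 dpf, at nominal concentrations of 0.01, 0.1, 1 or 10 μg/L, and the control fry received the solvent alone. A group comprised 3 tanks, with 2 pools of 10 pairs of gonads from every tank, and each of these 30 pools was hybridised to its own single-color array, 6 per group. The measured concentrations were 0.08 ± 0.06 (SD), 1.62 ± 1.74 and 9.88 ± 5.06 μg/L in the 3 higher groups, and the lowest lay under the detection limit of 0.02 μg/L.

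FOXL2 is a forkhead transcription factor of the granulosa cells that surround the oocyte. In fish it is an early marker of ovarian differentiation and takes part in the control of aromatase, the enzyme that makes oestrogens from androgens, and in the testis its level is normally low. Spon2 encodes spondin-2, a secreted protein of the extracellular matrix that is known from mammals for roles in cell adhesion and innate immunity. Cdkn1b encodes p27Kip1, an inhibitor of cyclin-dependent kinases that holds cells at the passage from G1 to S phase.

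Each gene name rests on a match of values and not on sequence. Exactly 1 of the 60195 probes gave the fold changes and adjusted p that the study prints for each gene, in a fit to the deposited log2 table, so that this match is no evidence for the values themselves. A printed value counted as given when either rounding or cutting off the further digits reached it. Rainbow trout carry duplicated genes. The RefSeq gene table used here holds cdkn1ba and cdkn1bb, spon2b, and the forkhead genes foxl2l and foxl3, and which copy a probe reads was not determined. The tissue label could not be checked against the marker lists for Sertoli, Leydig, germ, oocyte, blood, immune and liver genes, since none of their symbols could be paired with a probe. Of the granulosa markers only FOXL2 itself was matched.

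Arrays differed in brightness before normalisation, with a 75th percentile of the processed signal from 359 to 1238, and 75.6 to 88.2% of probes were well above background. Control replicates 2 and 6 stood apart from the other controls over all probes. Their mean correlation with the arrays at 0.01 μgEE2/L was 0.973 and 0.975, and with the other controls 0.957 and 0.952. Control replicate 4 had a dim area in the middle of the array and a mean correlation of 0.925 with the other controls. EE2 0.1 replicate 1 had a dim middle as well.

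FOXL2 was the brightest of the 3 probes and was well above background on every array. All levels below are log2 of the processed signal after quantile normalisation. In the control it ran from 6.91 over a median of 7.75 to 9.03 (mean 7.95 ± 0.87, SD, n = 6). The 2 highest control values, 9.03 and 8.97, were those of replicates 2 and 6, and the other 4 controls did not exceed 7.77.

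At 0.01 μgEE2/L the FOXL2 level ran from 9.49 over 10.00 to 10.33 (9.93 ± 0.37, n = 6), and at 0.1 μgEE2/L from 9.47 over 9.79 to 10.05 (9.79 ± 0.22). The range was 8.39 over 8.66 to 8.86 (8.65 ± 0.19) for the pools of 1 μgEE2/L, and 8.47 over 8.66 to 8.92 (8.69 ± 0.17) for those of 10 μgEE2/L. Every array at the 2 lower concentrations was thus above every control and above every array at 1 and 10 μgEE2/L. Over all probes, 0.553% had both lower concentrations above the control without overlap, and 1.32% had both above the 2 higher concentrations. FOXL2 was chosen for the first of these patterns, so its place among them is no finding.

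Before normalisation the FOXL2 spot read 104.5 to 839.5 in the control, 681.1 to 1420 at 0.01 μgEE2/L, 505.6 to 932.5 at 0.1 μgEE2/L, 269.6 to 555.3 at 1 μgEE2/L and 350.5 to 620.8 at 10 μgEE2/L. These values still hold the differences in brightness between arrays. In them the highest control, replicate 2, overlapped both lower concentrations, and control replicate 6, at 521.8, overlapped the 0.1 μgEE2/L group.

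The difference of FOXL2 from the control on the log2 scale was 1.98 at 0.01 μgEE2/L (SE 0.26, 3.96-fold), 1.84 at 0.1 μgEE2/L (3.59-fold), 0.70 at 1 μgEE2/L (1.62-fold) and 0.74 at 10 μgEE2/L (1.67-fold), with the same SE. The order of the means was 0.01, 0.1, 10, 1 μgEE2/L and control. At 1 and 10 μgEE2/L all 6 arrays lay above the control mean, but none lay above control replicates 2 and 6. Without these 2 controls the differences were 2.51, 2.37, 1.22 and 1.26. At 1 and 10 μgEE2/L they were 0.42 and 0.46 with another background correction (normexp with an offset of 50), and 1.11 and 1.16 with arrays weighted by their quality. In pools of whole gonads, a larger share of cells that carry FOXL2 RNA and more of it per cell cannot be told apart, which holds for every value given here.

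**Figure D1:**
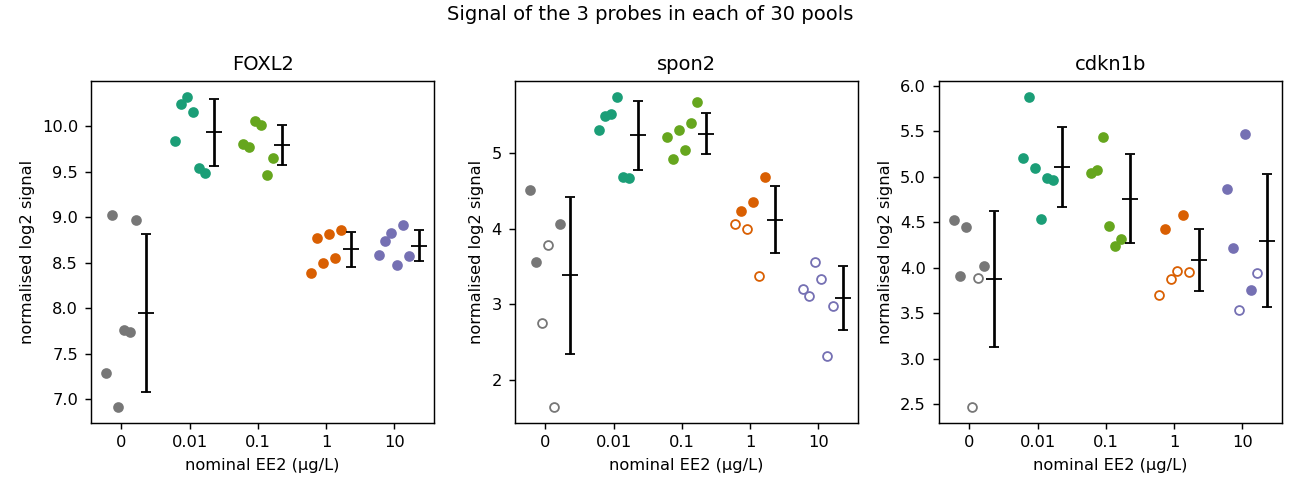
Normalised log2 signal (vertical axis) of FOXL2, spon2 and cdkn1b in the 6 pools of each nominal EE2 concentration (horizontal axis, μg/L). Points are pools, filled where the spot was well above background and open where it was not, and the bars give the mean ± SD. FOXL2 at 0.01 and 0.1 μg/L sat between 9.47 and 10.33, above all other pools, while the spon2 points at 10 μg/L were all open.

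Spon2 was a dim probe. Its processed signal ran from 4.29 to 72.2 over the 30 arrays, against a local background of 30.0 to 51.0 around its spot, and 18 of 30 arrays were well above background. In the control its log2 level ran from 1.64 over 3.67 to 4.52 (3.39 ± 1.04, n = 6), and its spot stood well above background in 3 of 6 pools. At 0.01 μgEE2/L it ran from 4.68 over 5.40 to 5.75 (5.24 ± 0.45) and at 0.1 μgEE2/L from 4.93 over 5.26 to 5.68 (5.26 ± 0.27), and all arrays of both groups passed that mark. All of them also lay above every control, as for 0.553% of all probes. Spon2 was chosen for a rise in these groups, so its place among those probes is no finding.

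At 1 μgEE2/L the spon2 level ran from 3.37 over 4.16 to 4.69 (4.12 ± 0.44), with 3 of 6 arrays well above background. At 10 μgEE2/L it ran from 2.32 over 3.15 to 3.56 (3.08 ± 0.43), and 0 of 6 arrays were well above background. The pools of 0.1 μgEE2/L were above all of those of 1 and 10 μgEE2/L, without overlap, which 3.22 and 4.25% of all probes showed. At 0.01 μgEE2/L 2 arrays, the lower at 4.68, lay just below the highest array of the 1 μgEE2/L group, at 4.69.

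The difference of spon2 from the control was 1.85 at 0.01 μgEE2/L (SE 0.33, 3.61-fold), 1.88 at 0.1 μgEE2/L (3.67-fold) and 0.73 at 1 μgEE2/L (1.66-fold). At 10 μgEE2/L the measured means differed by -0.30, and since no array of that group was well above background, the level there is only a bound. The means of the 0.01 and 0.1 μgEE2/L groups were 3.96-fold and 4.02-fold above that bound. No fold is given for the control against 10 μgEE2/L, since without control replicate 1 or 6 the control mean lay below the bound. Leaving out 1 array at a time, the difference at 10 μgEE2/L ran from -0.65 without control replicate 5, the lowest at 1.64, to -0.08 without control replicate 1. Without control replicate 5 the difference at 1 μgEE2/L was 0.38. For each bound the dim group was set, array by array, to the higher of the probe's own level and the lowest level among probes well above background. That lowest level is one of the whole array and not of the spon2 spot, which was not well above background at 4.07 in EE2 1 replicate 1. Folds above such a bound are therefore no strict minimum, and they leave out the spread between pools. The order of the means was 0.1, 0.01, 1 μgEE2/L, control and 10 μgEE2/L.

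The size of these spon2 differences depended on the setting. With normexp they were 0.57 and 0.52 at the lower concentrations. That setting adds an offset of 50, which is large beside the spon2 signal of 4.29 to 72.2 and by itself shrinks log2 differences. With each array scaled to its 75th percentile in place of quantile normalisation, the difference at 1 μgEE2/L was -0.01, where the median of all probes had moved by -0.28, so that spon2 lay 0.27 above that median.

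On control replicate 4 the spon2 spot lay inside the dim area. The median of the 117 spots within 5 rows and columns deviated there by -1.31 (log2) from their usual level in the controls, while the spon2 value there, 3.79, was the third highest of the controls. On EE2 0.1 replicate 1 these neighbours deviated by -0.50. Without both arrays the spon2 differences were 1.94 and 1.97 at the lower concentrations.

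Cdkn1b was as dim as spon2, with a processed signal from 5.95 to 58.8 and 22 of 30 arrays well above background, and its groups overlapped more. In the control it ran from 2.46 over 3.96 to 4.53 (3.88 ± 0.75, n = 6). At 0.01 μgEE2/L it ran from 4.54 over 5.04 to 5.88 (5.11 ± 0.44), and at 0.1 μgEE2/L from 4.24 over 4.75 to 5.44 (4.76 ± 0.49). All 6 arrays at 0.01 μgEE2/L were above every control, as for 0.965% of all probes, and 3 of 6 were at 0.1 μgEE2/L, where 4.84% of all probes had no overlap with the control and the other 3 cdkn1b arrays lay among the controls. Cdkn1b was chosen for a rise in both groups as well, so these counts are no finding.

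At 1 μgEE2/L cdkn1b ran from 3.7 over 3.96 to 4.58 (4.08 ± 0.34), with 2 of 6 arrays well above background. At 10 μgEE2/L it ran from 3.53 over 4.08 to 5.47 (4.30 ± 0.74), with 4 of 6 arrays well above background. The highest value at 10 μgEE2/L, that of replicate 4, was above 5 of the 6 arrays at 0.01 μgEE2/L.

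The difference of cdkn1b from the control was 1.24 at 0.01 μgEE2/L (SE 0.32, 2.36-fold), 0.88 at 0.1 μgEE2/L (1.85-fold), 0.21 at 1 μgEE2/L and 0.42 at the highest concentration. The lowest control, replicate 4 at 2.46, carried part of each of these values. Without it they were 0.96, 0.61, -0.08 and 0.14, and with array weights 0.80, 0.62, -0.15 and -0.10. With normexp, whose offset of 50 by itself shrinks the differences of so dim a probe, they were 0.36, 0.22, -0.03 and 0.09. With 75th percentile scaling the difference at 10 μgEE2/L was -0.12, which was 0.16 above the median of all probes, and at 1 μgEE2/L it was -0.49, which was 0.21 below that median. The direction at the higher concentrations therefore depended on the setting. The spots within 5 rows and columns of the cdkn1b spot were not dim on control replicate 4, where their median deviation was 0.09.

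**Figure D2:**
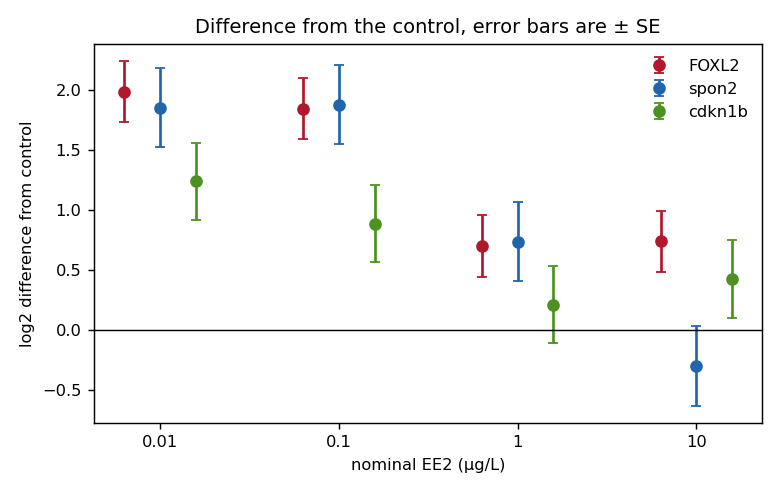
Log2 difference of each probe from the control (vertical axis) at each nominal EE2 concentration (horizontal axis, μg/L), with bars of ± SE from the limma fit. FOXL2 and spon2 lay between 1.84 and 1.98 at 0.01 and 0.1 μg/L, and at 10 μg/L FOXL2 was at 0.74 and spon2 at -0.30.

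Whether the 10-fold step between the lower concentrations changed the genes was tested with limma over all probes. None of the 3 passed the test between 0.01 and 0.1 μgEE2/L, while 10.5% of all probes did. FOXL2 differed by -0.14 (95% interval -0.66 to 0.38, adjusted p = 0.824), spon2 by 0.02 (-0.65 to 0.70, adjusted p = 0.983) and cdkn1b by -0.35 (-1.01 to 0.31, adjusted p = 0.591). For FOXL2 the interval leaves out differences beyond 0.66 in either direction, and for cdkn1b it still holds a 2-fold fall. At an unadjusted p below 0.05 the count was 0 of 3 as well, against 21.5% of all probes. The choice had asked for a rise in both groups, which bears on a difference between them, so these counts are no finding about the genes.

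Between 1 and 10 μgEE2/L hardly any probe on the array passed, 2 of 60195 or 0.00332%, and none of the 3 did. FOXL2 differed by 0.04 (-0.49 to 0.56, adjusted p = 1) and cdkn1b by 0.21 (-0.45 to 0.87, adjusted p = 1). For spon2 the difference was -1.04 (-1.71 to -0.36), with 3 of 6 arrays at 1 μgEE2/L and 0 of 6 at 10 μgEE2/L well above background. Its unadjusted p in limma was 0.00394 and its adjusted p 0.618, so this difference failed the correction over all probes. It was the 1 of the 3 genes with an unadjusted p below 0.05, which 4.8% of all probes had. The spon2 mean at 1 μgEE2/L was 1.82-fold above the bound set for 10 μgEE2/L. This is no minimum fold, since the interval of the difference reached -0.36. With arrays weighted by their quality in limma the adjusted p was 0.0186, in a fit where 2229 probes were called between these groups, and over the other alternatives it ran from 0.234 to 1.

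The control was the group with the widest spread for each of the 3 genes, although for cdkn1b the group at 10 μgEE2/L was nearly as wide (SD 0.75 and 0.74). Over all probes the control had the largest SD for 33.9% and the group at 0.1 μgEE2/L for 32.9%, and the median SD was 0.45 in both. At 0.1 μgEE2/L the SD of FOXL2 and spon2 was 0.22 and 0.27, and 10.5 and 17.7% of probes had a lower one there. The spread of FOXL2 narrowed from 0.87 in the control to 0.17 at 10 μgEE2/L, and these spreads were not compared by a test. The adjusted p of the choice rest on the spread within groups, so the places of these SDs among all probes are no finding.

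The slide was fitted beside the concentration as a technical batch. None of the 3 probes passed its F test in limma, with an adjusted p of 0.801 for FOXL2, 0.788 for spon2 and 0.839 for cdkn1b, and 0.0914% of all probes did. With the slide as a block the differences from the control at the lower concentrations were 1.85 and 1.74 for FOXL2, 1.94 and 2.06 for spon2, and 1.16 and 0.75 for cdkn1b.

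Among all probes, the 3 genes took different places. The difference at 0.01 μgEE2/L ranked 395 from the highest of 60195 for FOXL2, 462 for spon2 and 1232 for cdkn1b. At 0.1 μgEE2/L, where more probes changed, the ranks were 1380, 1327 and 5637. These ranks concern the size of the change alone. A measure of the shape was taken as the lower of the 0.01 and 0.1 μgEE2/L means minus the highest of the means of the control, 1 and 10 μgEE2/L. It was above 0 for 4874 probes, or 8.10%, and its median over all probes was -0.52.

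On this measure spon2 reached 1.12 and ranked 12, FOXL2 reached 1.11 and ranked 13, and cdkn1b reached 0.46 and ranked 325. Since the rule chose the genes by the same contrasts, these ranks describe them and test nothing. In level the genes were ordinary or dim. The mean of FOXL2 over the 30 arrays, 9.0, was exceeded by 30.3% of probes, that of spon2, 4.22, by 81.1% and that of cdkn1b, 4.43, by 79.4%.

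**Figure D3:**
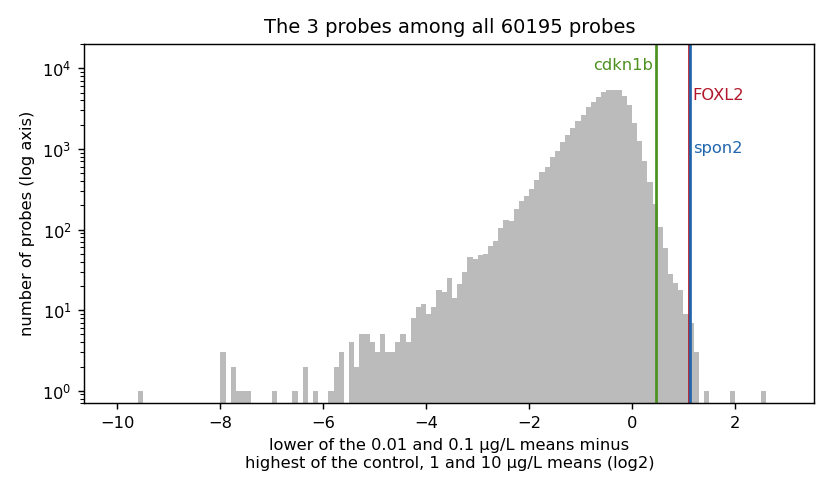
Number of probes (vertical axis, log scale) by the lower of the 0.01 and 0.1 μg/L means minus the highest of the control, 1 and 10 μg/L means (horizontal axis, log2), for all 60195 probes. Vertical lines mark cdkn1b at 0.46, FOXL2 at 1.11 and spon2 at 1.12, with 11 probes to the right of spon2.

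In this fit 71 probes, 0.118% of all, were called higher at both lower concentrations and not called at 1 and 10 μgEE2/L. By fold change at 0.01 μgEE2/L spon2 was the second of them and cdkn1b the twelfth. FOXL2 was not among the 71, since in this fit it was also called higher at 1 μgEE2/L, 10 μgEE2/L or both. Its 95% intervals against the control there were 0.18 to 1.22 and 0.21 to 1.26. With the deposited log2 values the FOXL2 differences there were 0.70 and 0.74 (SE 0.26), as in this fit. The study lists FOXL2 as not called at these concentrations, and the cause of this disagreement was not tested. Of these probes, 25 had a fold change over 2 at 0.01 μgEE2/L, the last inside being TC118656 (agtpbp1, 2.04-fold) and the first outside TC117218 (2.00-fold).

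The study's supplement names genes for 27 other probes over-expressed at the lower concentrations. It listed them by the same contrasts, so a positive value of the shape measure was close to fixed for them and shows nothing by itself. All 27 had a positive value of the shape measure, from 0.24 to 1.42 with a median of 0.81, and only 3 of them, metN2, Luc7l2 and MAL, lay above spon2 and FOXL2. In 20 of the 27 the value was above that of cdkn1b. At 10 μgEE2/L the measured mean was below the control in 10 of the 27 and above it in 17. That of spon2 was below and those of FOXL2 and cdkn1b were above. For spon2 the level there is only a bound, and for cdkn1b the direction depended on the setting, so neither direction is settled.

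The probes most like each gene were taken by Pearson correlation over the 30 arrays, which share the group means that the rule used. The closest to FOXL2 was nog3 (noggin-3, a secreted antagonist of bone morphogenetic proteins) with r = 0.94. Its means were 7.51 in the control, 9.72, 9.40, 8.35 and 8.15 at rising concentration, against 7.95, 9.93, 9.79, 8.65 and 8.69 for FOXL2. After the group means were removed, nog3 and FOXL2 had r = 0.73 over the same arrays. The FOXL2 deviations were widest in the control (SD 0.87, against 0.17 to 0.37 in the exposed groups). This r was not computed without the 2 controls that stood apart over all probes, so how far it rests on them was not tested. In deviations from group means the 3 probes closest to FOXL2 had r from 0.78 to 0.80, although they were well above background on at most 2 of 30 arrays. The next closest to FOXL2 were the unnamed probes CUST_2858_PI425536763 (r = 0.88), CUST_17718_PI425536763 (0.87), TC98168 (0.85) and TC99958 (0.84).

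Among the probes most like spon2 were 2 that both read cldn19, claudin-19, a protein of tight junctions, with r = 0.79 for each. Over the same arrays these 2 had r = 0.72 and 0.71 with FOXL2 and 0.73 and 0.72 with cdkn1b. With the group means removed, r was 0.24 and 0.22 with spon2, 0.02 and -0.0008 with FOXL2, and 0.62 and 0.64 with cdkn1b. The cldn19 probes were far brighter than spon2, with control means of 11.50 and 11.58 and means of 12.71 and 12.75 at 0.01 μgEE2/L, and they were back at 11.52 and 11.54 at 10 μgEE2/L. The other 3 probes nearest to spon2 had r from 0.78 to 0.79, and the 5 nearest to cdkn1b, all unnamed, r from 0.78 to 0.81. FOXL2 and spon2 correlated at r = 0.74, which put spon2 at rank 15 among the 60194 other probes by likeness to FOXL2. Cdkn1b stood further off, at rank 417 for FOXL2 (r = 0.53) and 2301 for spon2 (r = 0.45). The rule chose all 3 genes by their group means, so these ranks describe them and test nothing. With the group means removed, r was 0.28 for FOXL2 and spon2, where spon2 took rank 6238. For cdkn1b it was -0.07 with FOXL2 and -0.03 with spon2.

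**Figure D4:**
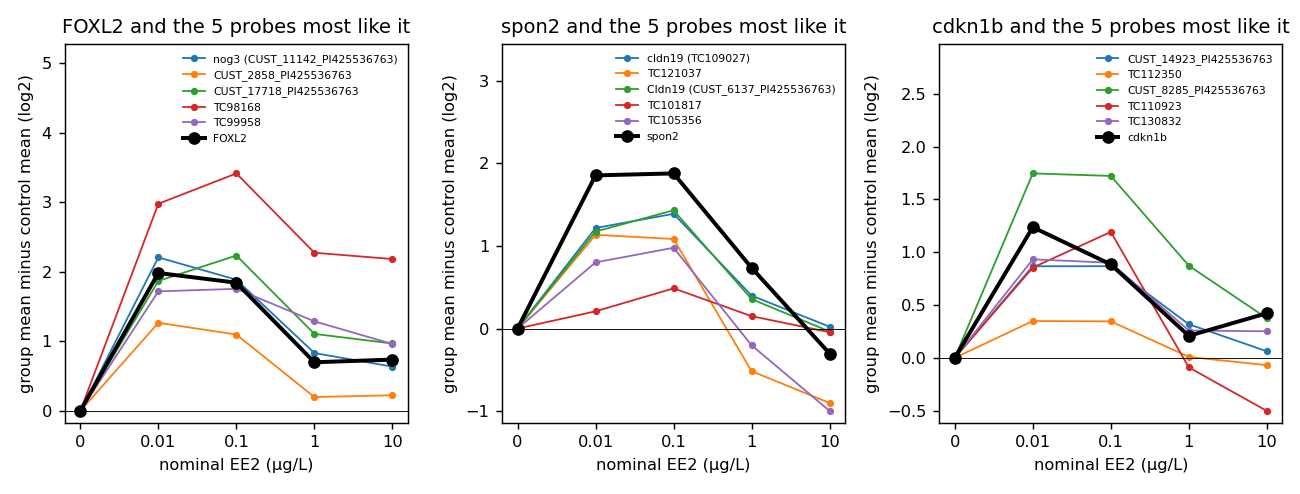
Group mean minus control mean (vertical axis, log2) by nominal EE2 concentration (horizontal axis, μg/L) for each gene, in black, and the 5 probes with the highest correlation to it over 30 arrays, in colour. The nog3 line followed FOXL2, and both cldn19 lines ended near 0 at 10 μg/L, where spon2 was at -0.30.

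Whether the 3 genes moved together from pool to pool was tested on the deviations from the group means. The rule did not use how these deviations vary together. The 3 pairs, and each gene against array brightness, made 6 relations with 2 tests each, and p-values were adjusted over these 12. FOXL2 and spon2 had r = 0.28 (permutation p = 0.437) and rho = 0.31 (p = 0.147), FOXL2 and cdkn1b r = -0.07 (p = 0.815) and rho = 0.03 (p = 0.895), and spon2 and cdkn1b r = -0.03 (p = 0.890) and rho = -0.05 (p = 0.817). The adjusted p was 0.941 for each. No relation within groups was detectable with these 30 arrays. The permutations took the pools of a group as exchangeable, although 2 share a tank. At 0.01 μgEE2/L the mean of tank 3 was the lowest for both FOXL2 (9.51) and spon2 (4.68). At 0.1 μgEE2/L that of tank 3 was the lowest for FOXL2 (9.56) and the highest for spon2 (5.54).

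Without the 2 arrays farthest in the first gene, r was 0.14 for FOXL2 and spon2, where these were control replicates 2 and 6, -0.20 for FOXL2 and cdkn1b, and -0.16 for spon2 and cdkn1b. Over all settings apart from single arrays left out, r of FOXL2 and cdkn1b ran from -0.20 to 0.44, the latter with the means of the pools of a tank. In the 18 arrays that shared both group and slide with another array, FOXL2 and spon2 had r = 0.59 (permutation p = 0.0928, adjusted p = 0.279) and rho = 0.68 (permutation p = 0.0203, adjusted p = 0.229). Over the 30 arrays the highest r with 1 array left out was 0.48, without control replicate 1. In the 24 exposed pools alone r was 0.37 (permutation p = 0.113, adjusted p = 0.461), and in the 6 controls alone 0.24 (exact p = 0.678). By likeness to FOXL2 within groups, 10.4% of all probes were above spon2 and 56.2% above cdkn1b. The 3 probes nearest to FOXL2 in these deviations had r from 0.78 to 0.80 and were well above background on at most 2 of 30 arrays, and the nearest to spon2 and cdkn1b had r from 0.71 to 0.73 and from 0.85 to 0.86.

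Within groups the 3 genes had r = 0.21 (FOXL2), -0.11 (spon2) and 0.14 (cdkn1b) with brightness and rho of 0.02, -0.16 and 0.07, with permutation p from 0.423 to 0.941 and adjusted p = 0.941. For FOXL2, r was -0.36 without control replicates 2 and 6, and -0.64 within group and slide (permutation p = 0.0437, adjusted p = 0.229), so that its sign rested on these 2 arrays.

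**Figure D5:**
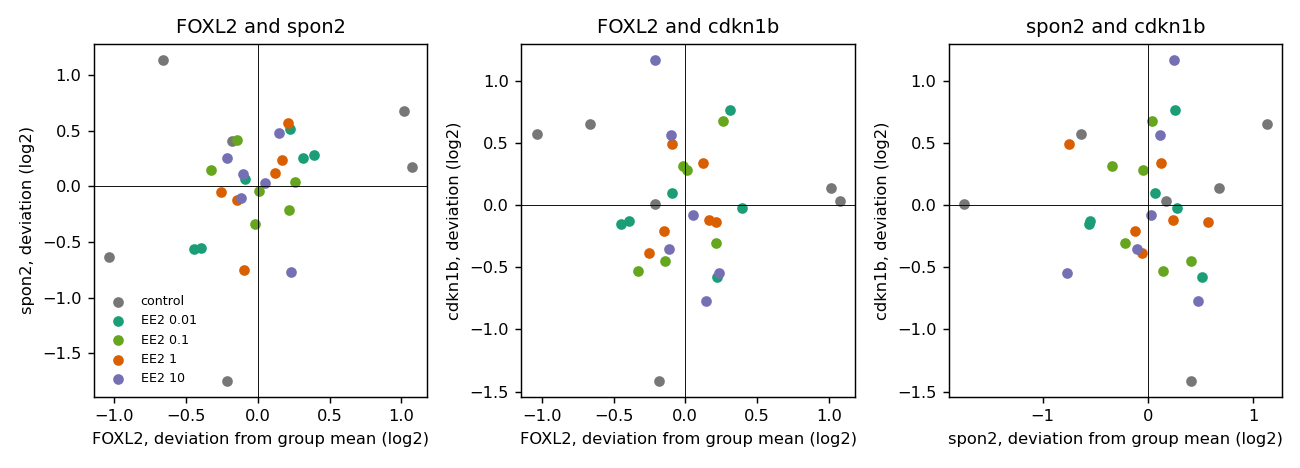
Deviation of each pool from its group mean (log2) for each pair of genes, FOXL2 and spon2, FOXL2 and cdkn1b, and spon2 and cdkn1b, with groups in colour. The clouds show no common direction (r = 0.28, -0.07 and -0.03), and the control pools spread the widest.

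Of the 25 symbols in a list of ovarian differentiation genes around FOXL2, 2 could be paired with a probe, FOXL2 and Wnt4a. Wnt4 is a signal that acts in the ovarian pathway of mammals. Its log2 level was 4.30 ± 0.91 (n = 6) in the control and 4.47 ± 0.24 at 0.01 μgEE2/L, a difference of 0.17 (SE 0.39) that did not pass (adjusted p = 0.846, limma) in a contrast where 7.91% of all probes did, with 5 of 6 arrays well above background in each group.

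At 0.1, 1 and 10 μgEE2/L no array was well above background for Wnt4a. The control mean was 1.51-fold, 1.5-fold and 2.33-fold above the bounds of these groups, set as for spon2. These folds are no minimum, since the Wnt4a spot was not well above background at 4.32 in EE2 0.01 replicate 2, against a control mean of 4.30. The adjusted p of Wnt4a in limma was 0.00068, 7.22e-05 and 6.29e-05, in contrasts where 14.3, 21.2 and 22.5% of all probes were called lower. The highest Wnt4a control, replicate 4 at 5.74, was the array with the dim middle, and without it the folds were 1.24, 1.23 and 1.9.

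Wnt4b, which is no symbol of the list, was named after its values were seen. Its control mean was 6.91 ± 1.29 and its differences were 0.55, -0.23, 0.92 and 0.78 at rising concentration, none of which passed (adjusted p = 0.685, 0.839, 0.28 and 0.359, limma). Its lowest values, 4.31 in control replicate 4 and 1.86 in EE2 0.1 replicate 1, came from the arrays with a dim middle and were not well above background. The lists of cell cycle partners of p27 (24 symbols) and of spondins and their relatives (15 symbols) held no other gene that could be paired with a probe.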

How the data were processed

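RNA of 30 pools was read on single-color Agilent arrays, 6 pools per group. The authors scanned the slides and corrected the background with Agilent's software. Their deposited scanner output gives each spot's processed intensity, linear and not yet normalised between arrays. The deposited value table holds log2 values that the authors made by quantile normalisation, in R 2.15.3 per the labels. It was used to identify the 3 probes and as an alternative. For 3 pairs of pools of equal concentration the scanner files and this table exchange their labels, and the scanner files' labels were used, so that replicate and tank terms rest on them. The pairs were control replicates 2 and 4, EE2 0.1 replicates 1 and 6, and EE2 10 replicates 4 and 5.

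Spots of a probe were averaged (each of the 3 genes had 1 spot), and the log2 values of 60195 probes were quantile normalised. A model with 1 mean per group was fitted with limma 3.58.1 in R 4.3.3 (2.89 prior degrees of freedom), with Benjamini-Hochberg adjustment over all probes within a contrast and a threshold of 0.05. P-values measure the spread between pools, of which 2 share a tank. Within-group correlations used 100000 permutations within groups, two-sided, with numpy 2.4.6 and scipy 1.17.1 in Python 3.11.15. Fits and correlations were tested on simulated data.

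Members, gene lists and tests were chosen with earlier results of these data known. Named probes are the 3 genes, for each the 5 most correlated over 30 arrays and the 3 most correlated in deviations from group means (the latter, all unnamed, given as ranges), up to 5 of the study's annotated probes, and probes of the gene lists. TC117218, Wnt4b and the 3 annotated probes above FOXL2 were named after their values were seen. Alternatives were 75th percentile scaling, the deposited values, normexp, array weights, slide, replicate and tank terms, a brightness term, a filter on dim probes and leaving out arrays.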

Additional observations from a re-analysis of the deposited data

Results flagged for a closer look

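Among the 15 sets of 6 arrays (3 genes in 5 groups), the lowest cdkn1b value in the control, 2.46 in replicate 4, stood apart from the other 5, which ran from 3.89 to 4.53. Its gap to the nearest was 0.689 of the whole range, over the critical value of 0.625, and chance flags about 1 in 20 such sets. The spot was not well above background on that array, and the median of its neighbouring spots deviated by 0.09.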

How the results depend on the processing

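Of the values above, the differences between 0.01 and 0.1 μgEE2/L kept their side of the threshold under every alternative, as did the 3 correlations. Without control replicates 2 and 6 together, a setting added after the data were seen, FOXL2 differed from the control by 2.51, 2.37, 1.22 and 1.26 at rising concentration. With normexp, whose offset by itself shrinks the differences of dim probes, spon2 was at 0.57 and 0.52 and cdkn1b at 0.36 and 0.22. These values are each for the lower concentrations. With 75th percentile scaling, spon2 was at -0.010 (1 μgEE2/L) and -0.90 (10 μgEE2/L) and cdkn1b at -0.49 (1 μgEE2/L), against a median of all probes of -0.28 and -0.29 at 1 and 10 μgEE2/L. The cause was not tested. With array weights, spon2 differed between 1 and 10 μgEE2/L by -1.23 (adjusted p = 0.0186, limma). The count of probes called between 1 and 10 μgEE2/L was 2229 with array weights, 6 without the arrays with a dim middle, 5 with a brightness term, 1 with 75th percentile scaling, normexp, the slide as a block, the tank as a random block or the filter on dim probes, 0 with tank means and 0 without both control replicates 2 and 6.

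Leaving out 1 array at a time, this count ran from 0 to 103, the last without EE2 10 replicate 4, and the count between 0.01 and 0.1 μgEE2/L from 5305 to 7217. At 0.01 μgEE2/L the difference from the control ran from 1.78 to 2.2 (FOXL2), 1.5 to 2.08 (spon2) and 0.96 to 1.37 (cdkn1b). Arrays of equal replicate number had a median r of 0.02 in their deviations, over 60 pairs that ran from -0.46 to 0.43, with 21 over 0.1. A replicate block lowered the SE of the spon2 difference at 0.01 μgEE2/L from 0.33 to 0.29. With that block, 6402 probes were called between 0.01 and 0.1 μgEE2/L and 2 between 1 and 10 μgEE2/L, against 6313 and 2. Spon2 was well above background on 18 and cdkn1b on 22 of 30 arrays.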
